A study of Mus musculus with 4 samples.

Results

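Mouse morulae of the ICR strain, an outbred laboratory stock, were compared here by the replicate number in their labels: the replicate 2 libraries, 1 from embryos given control siRNA (siControl) and 1 from embryos given siRNA against Pwp1 (siPwp1), against the replicate 1 libraries, likewise 1 of each. The members are therefore all 4 libraries of the 4 in the series, 2 per replicate number. All embryos were made by in vitro fertilization, received their siRNA by electroporation as 1-cell embryos 3 h after insemination (hpi, taken here as hours post insemination), and were grown in KSOM medium with bovine serum albumin until 72 hpi. No group was left without electroporation. Each library is a pool of 10 morulae, prepared with a SMART-Seq kit that starts from polyA RNA. The labels number the replicates but do not say that libraries with the same number came from the same fertilization, culture round or sequencing run, so p-values speak only of how these 4 libraries vary, which may be technical variation.

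The morula is the compact ball of cells that comes before the blastocyst. Its outer cells polarize, join by tight and adherens junctions, and turn on the trophectoderm program under Tead4, Yap1, Cdx2 and Gata3, with keratins 8 and 18 among its early products. Inner cells lead to the pluripotent inner cell mass, while transcripts left from the oocyte and from the 2-cell stage, when the embryo's own genome is first used widely, decline.

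The replicate 1 libraries held 28981358 (siControl) and 48765229 (siPwp1) expected counts and the replicate 2 libraries 44985949 and 30356988, so replicate 2 was the deeper library in siControl and the shallower in siPwp1. A count of 3 corresponded to 0.0594 to 0.104 CPM (counts scaled to the library's size), a floor that covers counting error only. Pwp1, the targeted gene, had 215 (replicate 1) and 365 CPM (replicate 2) after control siRNA against 36.9 and 37.2 CPM after Pwp1 siRNA, so it was lower in the libraries labelled siPwp1. It did not pass the test between replicate numbers (adjusted p = 0.290). Of the markers of a morula, Pou5f1 (54.5 to 79.2 CPM), Nanog (198 to 422 CPM), Tfap2c (76.3 to 90.7 CPM), Tead4 (33.0 to 49.1 CPM) and Cdh1 (56.2 to 145 CPM) were present in all 4 libraries. Others on the same marker list were scarce in some libraries. Cdx2 ranged from 0.897 to 15.4 CPM, and Sox2 was at 8.16 CPM in siControl replicate 1 and at 0.205 to 0.732 CPM elsewhere. Gata3 and Gata6, also on that list, are described below. Blood, cumulus, sperm and fibroblast lists had 13 tested members of 44 listed, with Tyrobp at 0 counts in all libraries and Amh, Foxl2 and the protamine Prm1 at 8 counts or fewer in each. Other members were present, among them Cd74 (46.2 to 64.8 CPM) and the globin Hba-a2 (11.3 to 39.3 CPM) of the blood list and Amhr2 of the cumulus list (5.24 to 18.997 CPM), and Hba-a1 had 0 counts in replicate 1 and 29 and 59 in replicate 2. Their summed levels were 58.9 to 110.1 CPM for blood (replicate 1 at 58.9 and 107.9, replicate 2 at 90.3 and 110.1), 7.6 to 19.6 CPM for cumulus, and 1.91 to 7.64 CPM for fibroblasts. The sperm and testis list summed to 4.23 and 13.97 CPM in replicate 1 and 18.2 and 63.7 CPM in replicate 2, of which Tex101 gave 2.78, 12.1, 17.2 and 62.3 CPM in the same order, and is described with the germline genes.

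Across the transcriptome, many genes differed between the replicate numbers, and 66.7% of all tested genes had a difference of the same sign in both siRNA groups. In replicate 2, keratin and trophectoderm genes, actin and glycolysis genes were among those lower, and germline, oocyte, mitosis and ribosome production genes were among those higher. A fit with the siRNA group as a block (edgeR's quasi-likelihood test, Benjamini-Hochberg adjusted p under 0.05) called 805 of 13585 tested genes (5.93%), 533 of them higher in replicate 2 (3.92%) and 272 lower (2.0%). Without any test, 602 genes (4.43%) were at least 2-fold higher in replicate 2 in both siRNA groups, 657 (4.84%) were at least 2-fold lower in both, and 436 differed at least 2-fold in opposite directions. Both replicate 2 libraries lay above both replicate 1 libraries for 3357 genes (24.7%) and below both for 3497 (25.7%). Of the called genes, 214 higher and 141 lower were also 2-fold or more apart in both groups. Log2 fold changes given below are replicate 2 minus replicate 1, and their median over all tested genes was -0.02. Counts of called members in the lists below stand against the 3.92% called higher and 2.0% called lower of all tested genes. List counts at an unadjusted p under 0.05 stand against 2960 of all 13585 tested genes. List counts called by DESeq2 stand against its 774 higher and 417 lower calls among the same 13585 genes.

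The libraries of siControl and of siPwp1 are separate samples, so each group gives its own difference between replicate numbers. Over the 8255 genes with a mean of at least 5 CPM, these differences correlated across genes at Pearson r = 0.558 and Spearman rho = 0.572, and over all tested genes at Pearson r = 0.317. Genes are not independent replicates, and these values are descriptions. Of the variance of log2 CPM over those 8255 genes, 51.6% went with the replicate number, 33.0% with the siRNA group and 15.4% with neither, each with 1 degree of freedom. In the plot of differences within each siRNA group, the called genes occupy the upper right and lower left corners. The test itself picks genes whose differences agree in both groups, so their place there is no separate evidence of a shared difference.

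**Figure D1:**
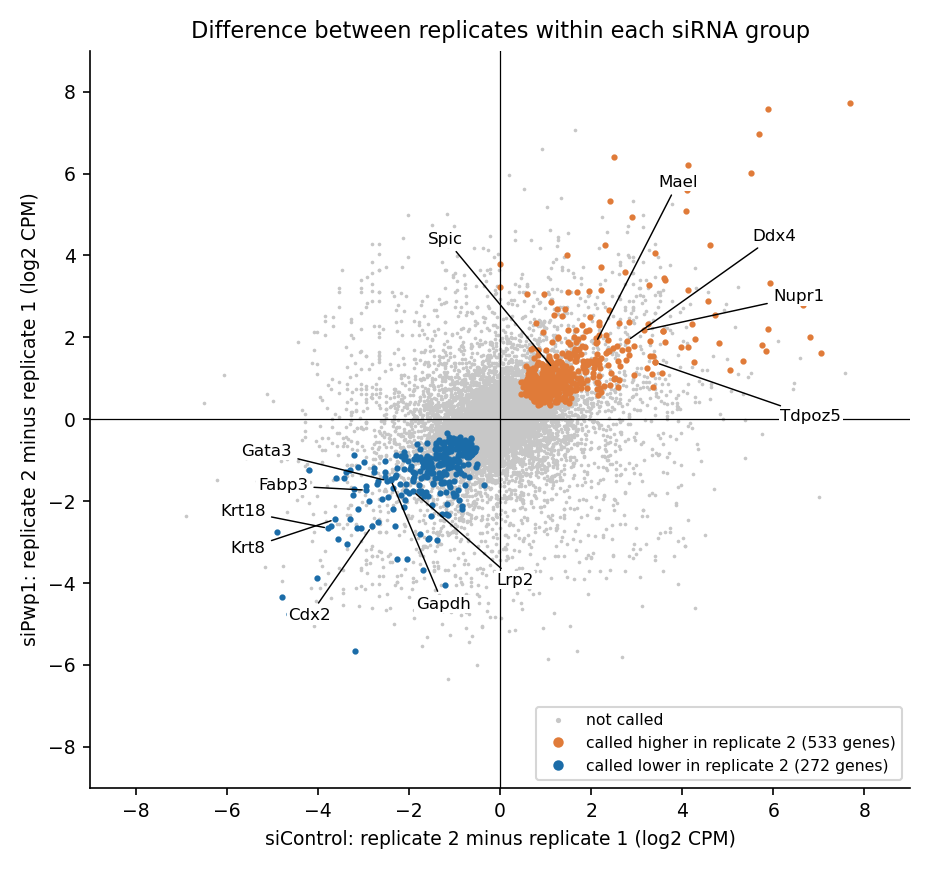
Each point is a tested gene, with the replicate 2 minus replicate 1 difference in siControl on the x axis and in siPwp1 on the y axis, both in log2 CPM (prior count 2). Orange points are the 533 genes called higher in replicate 2, blue points the 272 called lower and grey points the rest, and labelled genes such as Krt18 and Mael lie well away from 0 on both axes.

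These calls depend on the block, because without it the difference between the siRNA groups enters the spread. With the block, 4 libraries leave 1 residual degree of freedom. Most of the information on the spread then comes from all genes together (10.3 prior degrees of freedom, against 5.23 without the block). With the replicate number as the single term, edgeR called 1 gene higher (Tgoln2, whose reads are divided with a close copy) and 4 lower (Krt18, Lrp2, Dhx16 and Krt8), with 2263 genes at an unadjusted p under 0.05 against 2960 with the block. The block cannot be kept when a library is left out, and without it dropping siControl replicate 1 gave 31 higher and 17 lower calls, dropping siControl replicate 2 gave 1 and 0, dropping siPwp1 replicate 1 gave 612 and 336, and dropping siPwp1 replicate 2 gave 1 and 1. Of the 118 called genes among those named by rule or list, 27, 0, 104 and 2 kept their call in those fits, in the same order, so the calls below rest on the block, and few outlast the loss of either replicate 2 library. Thinning every library to the smallest total left 299 higher and 138 lower, removing each library's trend over transcript length left 302 and 165, and limma on log2(TPM + 1) gave 338 and 136. An exact permutation test of 2 libraries against 2 cannot go below a two-sided p of 0.333.

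Trophectoderm transcription factors had a median that differed between the siRNA groups and with the library left out, and Cdx2 and Gata3, which are among the best known regulators of the lineage, were lower in replicate 2. In bulk samples, here and in every result below, fewer cells of a type and less RNA per cell cannot be told apart. Of 21 tested members (of 22 listed), 5 fell (against a background of 2.0% called lower) and 1 rose (against 3.92%), and the median log2 fold change was -0.05. In fits with no block it was 0.23 and -0.13 when the first or the second siControl library was dropped, and -0.26 and -0.65 when the first or the second siPwp1 library was. Cdx2, the homeobox factor that keeps trophectoderm identity, stood at 15.4 and 5.76 CPM in replicate 1 (here and below siControl first, then siPwp1) and at 2.14 and 0.897 CPM in replicate 2. Both replicate 2 libraries lay below both replicate 1 libraries, with a log2 fold change of -2.77 ± 0.41 (SE, adjusted p = 0.00453) resting on 27 to 444 counts per library. Gata3, a zinc finger factor that works beside Cdx2, was at 126 and 48.1 CPM in replicate 1 and at 22.7 and 16.97 CPM in replicate 2, a fall of 3.99-fold (log2 fold change -1.99 ± 0.26, adjusted p = 0.00273). Its replicates did not overlap either, although the replicate 1 libraries themselves differed more than the replicate 2 libraries.

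Id2, an inhibitor of basic helix-loop-helix factors that is enriched in outer cells, was at 47.9 and 56.2 CPM in replicate 1 and at 8.21 and 22.8 CPM in replicate 2 (log2 fold change -1.92, adjusted p = 0.0064). Klf6, a Krüppel-like zinc finger factor, fell from 32.7 and 30.3 CPM to 6.62 and 11.8 CPM (adjusted p = 0.0085), and the Ets factor Elf3 from 133 and 79.0 CPM to 39.02 and 47.6 CPM (adjusted p = 0.0157). Cited2, a transcriptional coactivator subunit, was the member that rose, from 7.04 and 10.99 CPM to 18.9 and 22.1 CPM (adjusted p = 0.0411). Tead4, the DNA-binding partner of Yap1 upstream of Cdx2, was at 34.6 and 33.0 CPM in replicate 1 and 49.1 and 36.9 CPM in replicate 2 and did not pass the test (adjusted p = 0.440). The fall of Cdx2 and Gata3 was thus not accompanied by a called change of Tead4. In siControl the list's median was -1.17 and in siPwp1 0.10, so the list as a whole did not show the shared direction that its 5 lower members did.

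Among trophectoderm surface and uptake genes, 6 of 21 tested members fell and none rose (9 at an unadjusted p under 0.05, 7 called by DESeq2), with a median of -0.24. Lrp2, or megalin, the large endocytic receptor, had 370 and 314 CPM in replicate 1 and 97.9 and 93.1 CPM in replicate 2. The libraries of each replicate number were close to each other whatever the siRNA, and the fall was 3.57-fold (log2 fold change -1.84 ± 0.17, adjusted p = 0.000547). Fabp3, a fatty acid binding protein, was at 630 and 218 CPM in replicate 1 and at 82.2 and 65.5 CPM in replicate 2 (log2 fold change -2.34, adjusted p = 0.00117). Ptges, which makes prostaglandin E from its endoperoxide precursor, fell from 104 and 60.6 CPM to 24.3 and 15.3 CPM (adjusted p = 0.000895). The others that fell were the membrane protein Emp2 (log2 fold change -1.16), the glucose transporter Slc2a3 (-1.22) and the matrix protein Tinagl1 (-2.16). Cubn, the receptor that works with Lrp2 in uptake, went the other way without passing the test, at 5.8 and 3.88 CPM in replicate 1 and 10.1 and 15.1 CPM in replicate 2 (adjusted p = 0.0627).

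Keratin and desmosome genes had the lowest median of the 33 lists, at -1.24 over 14 tested members of 16 listed, with -1.03 in siControl and -0.98 in siPwp1. Of the 14, 13 had a log2 fold change below 0, 4 fell (28.6%, against 2.0% of all tested genes) and none rose. DESeq2 called 4, and 8 had an unadjusted p under 0.05. Krt18, a type I keratin, stood at 211 and 162 CPM in replicate 1 and at 15.4 and 25.6 CPM in replicate 2, a fall of 9.31-fold (log2 fold change -3.22 ± 0.26, adjusted p = 0.000489). Krt8, the type II keratin that pairs with it in filaments, stood at 193 and 116 CPM in replicate 1 and at 15.6 and 21.3 CPM in replicate 2, a fall of 8.22-fold (log2 fold change -3.04 ± 0.27, adjusted p = 0.000547). The pair moved together in each group, with summed levels of 404 and 279 CPM in replicate 1 against 31.0 and 46.9 CPM in replicate 2. Both remained called without the block (adjusted p = 0.039 and 0.0454), and Krt18 also without siPwp1 replicate 2, but neither without siControl replicate 2 (adjusted p = 0.0663 and 0.135).

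Among desmosome parts, the plakophilin Pkp2 was at 27.1 and 22.1 CPM in replicate 1 and 10.8 and 10.2 CPM in replicate 2 (adjusted p = 0.0318). Desmoplakin, Dsp, which links desmosomes to keratin, was at 30.5 and 9.14 CPM in replicate 1 and 9.97 and 4.88 CPM in replicate 2 (adjusted p = 0.0454). Its siControl replicate 2 library lay above its siPwp1 replicate 1 library, so the replicate numbers overlapped and the call rests on the difference within each group. The list's median depended on siControl replicate 1, without which it was -0.45.

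Krt8 and Krt18 are neighbours in the genome, protein-coding genes at chr15:101996711-102004342 and chr15:102028216-102032026 (RefSeq on GRCm38.p6, the assembly that mm10 names), and read towards opposite ends of the chromosome. Their promoters, 250 bases before to 50 after the start, are shown because this pair had the 2 largest falls of the named trophectoderm markers, with matches to TATAAA and to the AP-2 motif GCCNNNGGC in capitals, searched on both strands.
Krt8, chr15:102004293-102004592, minus strand: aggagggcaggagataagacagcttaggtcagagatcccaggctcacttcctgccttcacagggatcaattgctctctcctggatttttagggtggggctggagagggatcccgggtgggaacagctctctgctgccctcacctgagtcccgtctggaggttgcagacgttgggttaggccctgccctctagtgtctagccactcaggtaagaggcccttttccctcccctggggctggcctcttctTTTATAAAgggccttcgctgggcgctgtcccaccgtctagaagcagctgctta
Krt18, chr15:102027966-102028265, plus strand: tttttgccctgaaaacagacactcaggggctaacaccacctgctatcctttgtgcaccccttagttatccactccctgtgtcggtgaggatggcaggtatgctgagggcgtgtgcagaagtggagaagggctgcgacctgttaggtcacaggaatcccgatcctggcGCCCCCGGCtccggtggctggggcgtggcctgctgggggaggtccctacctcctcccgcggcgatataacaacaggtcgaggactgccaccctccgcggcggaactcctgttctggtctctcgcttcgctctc
The Krt8 window holds TATAAA, overlapping with a copy on the other strand, as do 13.6% of all 32851 promoter windows, and no AP-2 match. The Krt18 window holds 1 AP-2 match, as do 16.6% of all windows, and no TATAAA. The TEAD motif GGAATG, which 14.7% of windows hold, is in neither. Of the 10314 tested genes with a promoter entry, 9.18% held TATAAA, 28.4% the AP-2 motif and 14.3% the TEAD motif. These are matches of letters and were tested for no effect.

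**Figure D2:**
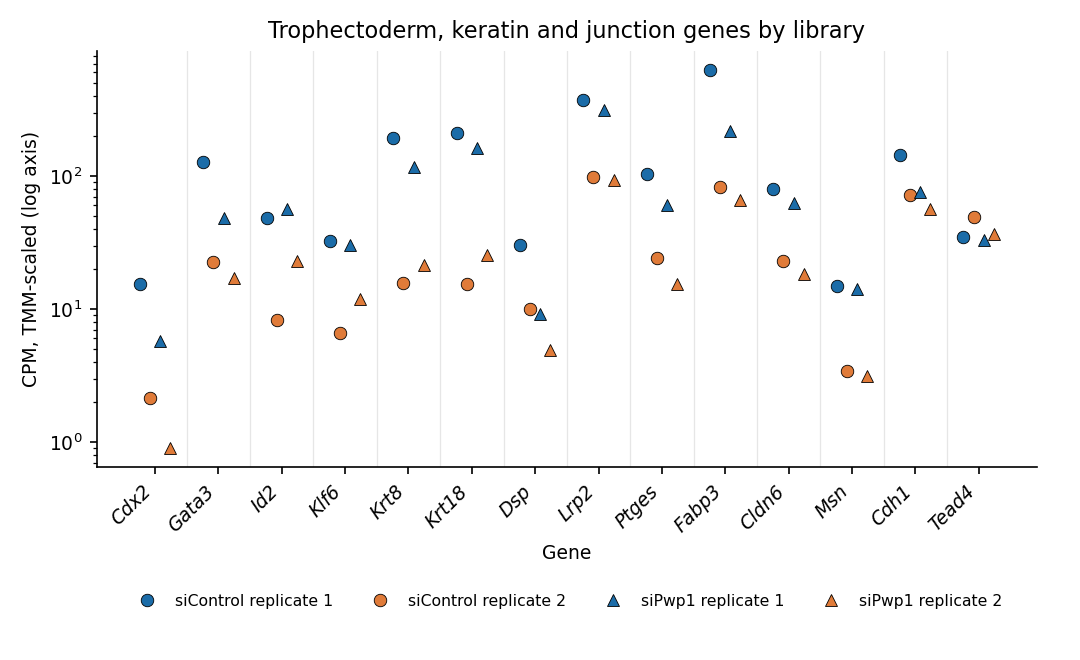
CPM (log axis) in each of the 4 libraries for trophectoderm, keratin and junction genes, with blue for replicate 1, orange for replicate 2, circles for siControl and triangles for siPwp1. For Krt8, Krt18, Lrp2 and Msn both orange points lie below both blue points with a wide gap, whereas for Dsp they interleave and for Tead4 the orange points lie slightly above.

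Tight junction genes split between components. Of 24 tested members (of 26), 2 fell (8.33%, against 2.0% of all tested genes) and 1 rose (4.17%, against 3.92%). The median of -0.57 shrank to -0.14 over members with at least 5 CPM in 2 libraries. In limma on log2(TPM + 1) it was -0.15, so it came mostly from scarce transcripts. Cldn6, a claudin of early epithelia, was at 79.8 and 62.4 CPM in replicate 1 and 23.0 and 18.4 CPM in replicate 2 (log2 fold change -1.77 ± 0.21, adjusted p = 0.00173). F11r, the junctional adhesion molecule JAM-A, rose from 78.4 and 83.5 CPM to 177 and 154 CPM (log2 fold change 1.03, adjusted p = 0.00851). For both genes the replicate numbers did not overlap, and F11r moved against the claudin.

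Adherens junction and polarity genes leaned lower, with 25 of 30 members below 0 and a median of -0.42. Of the 30, 2 fell (6.67%, against 2.0% of all tested genes) and none rose. DESeq2 called 4, and 11 had an unadjusted p under 0.05. Without siControl replicate 1 the median was -0.10 and without siPwp1 replicate 1 -0.76. Moesin, Msn, which ties actin to the cell cortex, had 14.9 and 14.1 CPM in replicate 1 and 3.41 and 3.16 CPM in replicate 2 (log2 fold change -2.14 ± 0.35, adjusted p = 0.00703). Nectin-2, listed as Pvrl2, was the other that fell (log2 fold change -1.51, adjusted p = 0.0457). E-cadherin, Cdh1, the adhesion protein of compaction, was at 145 and 75.5 CPM in replicate 1 and 71.7 and 56.2 CPM in replicate 2 and did not pass (log2 fold change -0.72, adjusted p = 0.0581).

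A list of actin and cell cortex genes, drawn up after the values were seen and so a description only, had 9 of 30 tested members called lower and none higher (16 at an unadjusted p under 0.05, 9 called by DESeq2), with a median of -0.45. Cytoplasmic gamma actin, Actg1, was at 3173 and 1727 CPM in replicate 1 and 885 and 920.2 CPM in replicate 2 (adjusted p = 0.0043), and beta actin, Actb, at 1609.8 and 1371 CPM against 1000.03 and 849 CPM (adjusted p = 0.0158). The tropomyosins Tpm4 and Tpm1, the myosin light chains Myl6 and Myl12b, the transgelin Tagln2, thymosin Tmsb10 and the calponin Cnn2 made up the rest. Of the S100 and annexin genes, a list drawn up in the same way, 3 of 19 tested members fell: S100a11 from 357 and 336 CPM to 110 and 150 CPM, Anxa2 from 119 and 111 CPM to 41.0 and 47.2 CPM, and S100a10, which binds Anxa2, from 52.1 and 44.3 CPM to 11.3 and 14.7 CPM. All of these separated the replicate numbers without overlap.

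Among pumps and water channels that serve blastocyst cavitation, the members that passed the test were aquaporins that rose. Of 13 tested members (of 20), 2 rose (15.4%, against 3.92% of all tested genes) and none fell. DESeq2 called 4, and 8 had an unadjusted p under 0.05. The median was -0.32 over all tested members but 0.16 over those with at least 5 CPM in 2 libraries. With 1 library left out and no block it ranged from -0.61 (without siPwp1 replicate 2) to -0.21 (without siControl replicate 1), and it was -0.60 without siPwp1 replicate 1. Aqp9, an aquaporin that passes water and small solutes, was at 91.4 and 66.4 CPM in replicate 1 and 177 and 165 CPM in replicate 2 (adjusted p = 0.0061), and Aqp11, an intracellular aquaporin, rose from 6.91 and 14.1 CPM to 21.5 and 56.6 CPM (adjusted p = 0.00453). Aqp3, the aquaporin best known from outer cells, was at 104 and 53.1 CPM in replicate 1 and 84.9 and 51.7 CPM in replicate 2 (adjusted p = 0.684), so its levels went with the siRNA group more than with the replicate number. Atp1b1, a subunit of the sodium pump, was lower in replicate 2 in siControl, at 62.2 against 18.2 CPM, and not in siPwp1, at 31.4 against 36.3 CPM (adjusted p = 0.274).

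In the Hippo pathway, which keeps Yap1 out of the nucleus of inner cells, 3 of 23 tested members rose and none fell (6 at an unadjusted p under 0.05, 4 called by DESeq2), with a median of 0.12. The called members were Mob1a and Mob1b, which activate the Lats kinases, and the upstream kinase Taok1. Mob1a went from 4.58 and 3.05 CPM in replicate 1 to 17.1 and 13.9 CPM in replicate 2 (log2 fold change 2.04 ± 0.35, adjusted p = 0.00791), and the replicate numbers were far apart. Yap1 itself was at 37.9 and 29.2 CPM in replicate 1 and 24.2 and 26.7 CPM in replicate 2 (adjusted p = 0.416).

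Pluripotency genes leaned higher in replicate 2, with a median of 0.42 (0.34 in siControl, 0.38 in siPwp1). DESeq2 called 6 of 24 tested members, and 14 had an unadjusted p under 0.05. By the edgeR test 4 rose (16.7%, against 3.92% of all tested genes) and none fell. Spic, an Ets factor of early embryos, was at 345 and 399 CPM in replicate 1 and 776 and 941 CPM in replicate 2 (log2 fold change 1.201 ± 0.15, adjusted p = 0.00188). Klf2, a Krüppel-like factor of the naive state, rose from 43.8 and 75.3 CPM to 128 and 147 CPM, and Tdgf1, the Nodal co-receptor Cripto, from 19.1 and 19.0 CPM to 48.4 and 49.9 CPM. Fgf4, the growth factor that inner cells use to instruct primitive endoderm, rose from 8.43 and 7.82 CPM to 18.6 and 20.5 CPM (adjusted p = 0.0357). The replicate numbers did not overlap for any of the 4, and for Tdgf1 and Fgf4 the siRNA groups had nearly the same level at each number.

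The central factors did not follow them. Pou5f1 was at 79.2 and 56.5 CPM in replicate 1 and 57.7 and 54.5 CPM in replicate 2 (adjusted p = 0.523), and Nanog was lower in replicate 2 in siControl, at 422 against 291 CPM, and higher in siPwp1, at 198 against 273 CPM (adjusted p = 0.957). Sox2, an early marker of inner cells, was at 8.16 CPM in siControl replicate 1 and at 0.205 to 0.732 CPM in the other 3 libraries (adjusted p = 0.0543), so 1 library carried it. Of 16 tested primitive endoderm members, 1 fell and none rose (6 at an unadjusted p under 0.05, 2 called by DESeq2), and the one that fell was Sparc, a matrix-binding glycoprotein (log2 fold change -1.79, adjusted p = 0.0389). Gata6, a driver of that lineage, was at 269 and 191 CPM in replicate 1 and 160 and 167 CPM in replicate 2 (adjusted p = 0.153). The primitive endoderm median of -0.25 became 0.02 without siControl replicate 1.

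Genes of the 2-cell stage had the highest median of the lists with more than 5 tested members, at 1.12, but the siRNA groups contributed unequally. The median was 2.15 in siControl and 0.70 in siPwp1. Of 38 tested members, 10 rose (26.3%, against 3.92% of all tested genes) and none fell. DESeq2 called 11, and 16 had an unadjusted p under 0.05. Only 8 of 38 separated the replicate numbers with replicate 2 higher, against 24.7% of all tested genes. Obox6, an oocyte and embryo homeobox gene, was at 420.1 and 829.7 CPM in replicate 1 and 1215 and 1397 CPM in replicate 2 (log2 fold change 1.14 ± 0.18, adjusted p = 0.0064). Sp110, a nuclear body protein gene, was at 137 and 268 CPM in replicate 1 and 424 and 441 CPM in replicate 2 (adjusted p = 0.0101). In both genes the replicate 2 libraries were close together and siControl replicate 1 was the lowest.

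For the other called members with a gene symbol, Tdpoz5, Tdpoz4, Zfp352 and Spz1, the siControl replicate 2 library lay below the siPwp1 replicate 1 library. Tdpoz5, a speckle-type POZ protein gene of a multi-copy family, was at 1.32 and 16.5 CPM in replicate 1 and 14.5 and 43.2 CPM in replicate 2 (adjusted p = 0.0130), and Zfp352, a zinc finger gene active at the 2-cell stage, at 3.30 and 20.9 CPM against 7.92 and 55.6 CPM (adjusted p = 0.0174). Zscan4d, a hallmark of the 2-cell state, had 1.35 and 13.2 CPM in replicate 1 and 0.501 and 9.60 CPM in replicate 2 (adjusted p = 0.248), so its level went with the siRNA group and not with the replicate number. Summed over copies, which avoids the uncertain split of reads among near-identical genes, the Trim43 family stood at 2752 and 4076 CPM in replicate 1 and 6159 and 6643 CPM in replicate 2, and the Zscan4 family at 2.05 and 48.2 CPM against 4.19 and 16.1 CPM. Left-out libraries turned the median of the 2-cell list: it was -0.06 without siControl replicate 1, turned to -0.96 when siPwp1 replicate 2 was dropped and reached 3.63 when siPwp1 replicate 1 was, in fits where the siRNA group is not blocked and its own difference enters.

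Oocyte and maternal genes had a median of 0.65 over 57 tested members of 64, with 0.80 in siControl and 0.32 in siPwp1. Of the 57, 5 rose (8.77%, against 3.92% of all tested genes) and 1 fell (1.75%, against 2.0%). Dropping siPwp1 replicate 1 gave a median of 1.35, dropping siControl replicate 1 gave 0.39 and dropping siPwp1 replicate 2 gave 0.27. Ddx4, the germ cell RNA helicase Vasa, was at 13.5 and 23.97 CPM in replicate 1 and 93.9 and 90.5 CPM in replicate 2, a rise of 5.10-fold (log2 fold change 2.35 ± 0.25, adjusted p = 0.00108). Dazl, a germ cell RNA-binding protein, rose from 6.94 and 11.7 CPM to 28.7 and 25.4 CPM (adjusted p = 0.0174), and Zp3, a zona pellucida protein, from 3.23 and 3.56 CPM to 10.3 and 16.3 CPM (adjusted p = 0.0124). The egg chaperone Npm2 and the receptor Gpr3, which holds oocytes in meiotic arrest, were the others that rose. Ooep, a subunit of the subcortical maternal complex, fell from 63.1 and 47.0 CPM to 33.5 and 19.6 CPM (adjusted p = 0.0189), and its partner Khdc3, at 1058 and 677 CPM against 726 and 603 CPM, did not pass (adjusted p = 0.204). Oocyte growth factors Gdf9 and Bmp15 were at 2.46 CPM or less in every library and did not pass (adjusted p = 0.834 and 0.733). The genes that rose thus included germ cell genes. Of the maternal complex only Ooep and Khdc3 are named here, Khdc3 after its value was seen, and neither rose. Over the whole list, 40 of 57 tested members had a log2 fold change above 0 and 17 below.

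A list of germline genes was drawn up after the values were seen, so its counts only describe them. Of 25 tested members (of 29), 13 were called higher and none lower (17 at an unadjusted p under 0.05, 13 called by DESeq2), with medians of 1.54 in siControl and 0.86 in siPwp1. Mael, maelstrom, which acts in transposon silencing by piRNAs, had 24.5 and 40.5 CPM in replicate 1 and 105 and 148 CPM in replicate 2 (log2 fold change 1.98 ± 0.19, adjusted p = 0.000612). Tex101, a germ cell surface glycoprotein, was at 2.78 and 12.1 CPM in replicate 1 and 17.2 and 62.3 CPM in replicate 2 (adjusted p = 0.00136), and Brdt, a bromodomain protein of spermatogenesis, at 2.74 and 7.96 CPM against 12.1 and 29.5 CPM (adjusted p = 0.0061). Within each siRNA group replicate 2 was higher for all of these, and no replicate 1 library reached a replicate 2 library. The other called members were the synaptonemal complex gene Sycp2, the piRNA pathway genes Asz1, Rnf17 and Mov10l1, the meiotic cohesin Smc1b, Tex11, Stk31 and the adenine nucleotide carrier Slc25a31, together with Ddx4 and Dazl. Testis genes of later sperm were not part of it: Prm1, Prm2, Tnp1 and Tnp2 had at most 13 counts in any library.

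Mael lies at chr1:166201385-166238744 and Ddx4 at chr13:112598333-112652633, both protein-coding. Their promoter windows are shown because they had the smallest p-values among the germline genes, with the E-box CACGTG and the E2F-type motif GCGGGAA in capitals, both searched on either strand. Many germline genes are known to be held silent in other cells by factors that bind these motifs.
Mael, chr1:166238695-166238994, minus strand: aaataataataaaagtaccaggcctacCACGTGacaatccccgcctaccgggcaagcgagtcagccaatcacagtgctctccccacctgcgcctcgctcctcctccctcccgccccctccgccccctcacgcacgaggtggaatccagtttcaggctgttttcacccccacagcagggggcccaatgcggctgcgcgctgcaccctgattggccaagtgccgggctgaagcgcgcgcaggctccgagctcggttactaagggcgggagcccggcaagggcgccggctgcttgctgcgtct
Ddx4, chr13:112652261-112652560, minus strand: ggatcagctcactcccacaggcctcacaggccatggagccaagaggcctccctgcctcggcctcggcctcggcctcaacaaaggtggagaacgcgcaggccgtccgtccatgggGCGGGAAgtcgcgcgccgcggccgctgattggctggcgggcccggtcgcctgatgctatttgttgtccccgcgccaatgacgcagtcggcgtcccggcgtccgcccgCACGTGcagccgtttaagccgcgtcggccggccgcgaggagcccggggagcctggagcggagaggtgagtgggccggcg
Mael has the E-box near the far end of its window, and Ddx4 has both motifs. Of the 21 tested germline members with a promoter entry, 12 held the E-box and 6 the E2F-type motif, against 11.5% and 9.6% of the 10314 tested genes with an entry. Among the called members with an entry, 6 of 11 held the E-box, so the called members did not hold it more often than the list did. Tex101, called as firmly, holds neither.

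**Figure D3:**
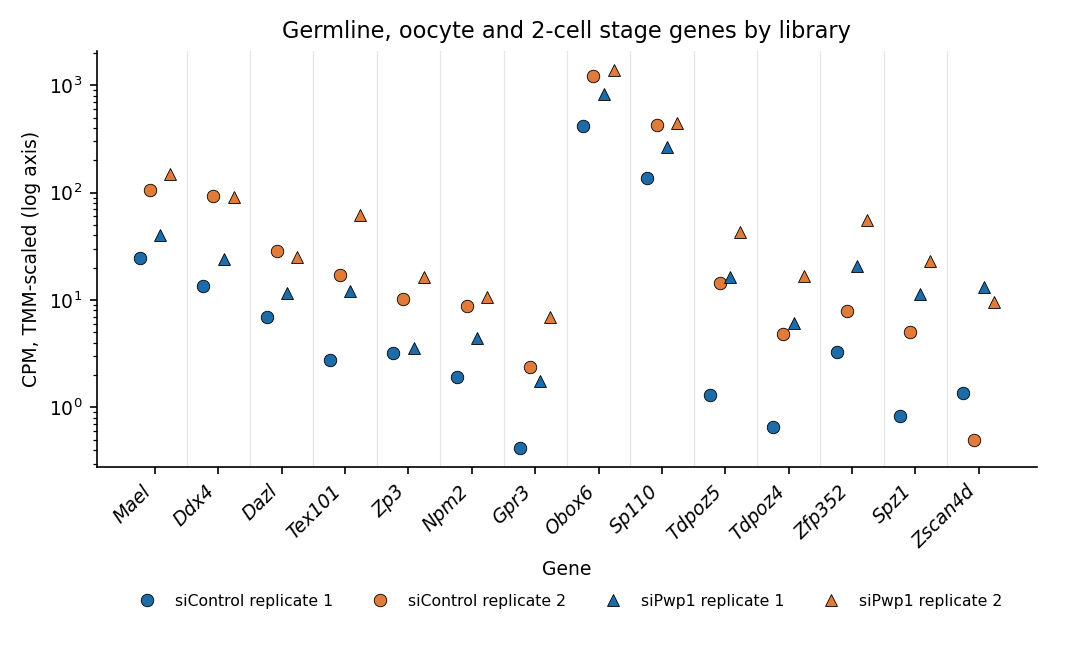
CPM (log axis) in each library for germline, oocyte and 2-cell stage genes, with blue for replicate 1, orange for replicate 2, circles for siControl and triangles for siPwp1. For Mael and Ddx4 both orange points lie above both blue points, whereas for Zfp352 and Spz1 the siControl replicate 2 circle lies below the siPwp1 replicate 1 triangle, and for Zscan4d both triangles lie above both circles.

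Glycolysis genes moved in part. Of 30 tested members (of 33), 4 fell (13.3%, against 2.0% of all tested genes) and 1 rose (3.33%, against 3.92%), with a median of -0.24. Gapdh, the glyceraldehyde phosphate dehydrogenase often used as a reference gene, was at 541 and 327 CPM in replicate 1 and 102 and 118 CPM in replicate 2 (log2 fold change -1.94 ± 0.22, adjusted p = 0.00138). Pyruvate kinase, Pkm, fell from 44.5 and 49.7 CPM to 15.8 and 11.6 CPM (adjusted p = 0.00453), phosphoglycerate kinase, Pgk1, from 53.2 and 67.9 CPM to 26.4 and 23.98 CPM (adjusted p = 0.0105), and the glucose transporter Slc2a3 also fell, as given above. The lactate dehydrogenase subunit Ldhb rose from 1.49 and 4.83 CPM to 5.37 and 19.7 CPM (adjusted p = 0.0125). All but Ldhb separated the replicate numbers with replicate 2 lower, while the enzymes between them mostly did not pass. Gapdh and Actb, both common reference genes, were both called lower in replicate 2.

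Lipid synthesis and storage genes, a list drawn up after the values were seen, had 7 of 27 tested members called lower and 1 higher, with a median of -0.53. The desaturase Scd2 was at 239 and 121 CPM in replicate 1 and 39.5 and 31.3 CPM in replicate 2 (log2 fold change -2.27 ± 0.21, adjusted p = 0.000547). Scd1 to Scd4, which are close copies, summed to 335 and 212 CPM in replicate 1 and 78.5 and 73.3 CPM in replicate 2, so the fall does not rest on how reads were divided among them. Dbi, an acyl-CoA binding protein, fell from 55.2 and 41.2 CPM to 12.1 and 11.5 CPM (adjusted p = 0.00218), while Dgat2, which makes triglyceride, rose from 14.02 and 18.7 CPM to 39.04 and 41.4 CPM (adjusted p = 0.0139). Among cholesterol synthesis genes 1 of 24 rose (Fdft1, squalene synthase) and 1 fell (Mvd, mevalonate decarboxylase). Each is 4.17% of the list, against 3.92% of all tested genes called higher and 2.0% called lower. Serine, folate and nucleotide synthesis genes had 3 of 28 members called higher and 1 lower, namely the nucleotide enzymes Ppat, Prps1 and Impdh2 and, lower, the mitochondrial serine enzyme Shmt2. Ppat, the first committed enzyme of purine synthesis, was at 296 and 315 CPM in replicate 1 and 557 and 626 CPM in replicate 2 (adjusted p = 0.0061).

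Nuclear genes of oxidative phosphorylation were lower in replicate 2 by a small and regular amount. The median over 76 tested members (of 77) was -0.38, with -0.43 in siControl and -0.35 in siPwp1, 70 members were below 0, and for 63 of 76 both replicate 2 libraries lay below both replicate 1 libraries, against 25.7% of all tested genes. The test called 9 lower (11.8%, against 2.0% of all tested genes) and none higher (39 at an unadjusted p under 0.05, 14 called by DESeq2). Cox7b, a small subunit of cytochrome c oxidase, was at 210 and 185 CPM in replicate 1 and 104 and 93.9 CPM in replicate 2 (log2 fold change -1.0 ± 0.17, adjusted p = 0.0078). The others called were the complex I subunits Ndufa3, Ndufa4, Ndufa11, Ndufb4 and Ndufb10 and the ATP synthase subunits listed as Atp5e, Atp5j2 and Atp5l.

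Cytosolic ribosomal protein genes showed the same kind of shift, with a median of -0.27 and 77 of 80 members below 0. Replicate 2 was lower without overlap for 65 of 80, against 25.7% of all tested genes. Yet edgeR called none of them (29 at an unadjusted p under 0.05, 5 called by DESeq2). Rplp1, an acidic protein of the ribosomal stalk, had the smallest adjusted p of them at 0.0516, with 713 and 645 CPM in replicate 1 and 422 and 485 CPM in replicate 2. Transcripts of both lists were mostly short, with a median length of 666 bases for oxidative phosphorylation and 679 for ribosomal proteins, although Ndufa11 (2661 bases) and Rpsa (1861 bases) were longer. The shortest 10% of all tested genes, with a median of 788 bases, had a median log2 fold change of -0.24, while the medians of the other 9 of 10 length bins lay between -0.06 and 0.10. With each library's trend over length removed, the medians were -0.17 and -0.06. The part of transcript length in these differences was not tested further, and libraries also differed in mean fragment length, which the deposited lengths put at 259.6 to 271.2 bases.

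**Figure D4:**
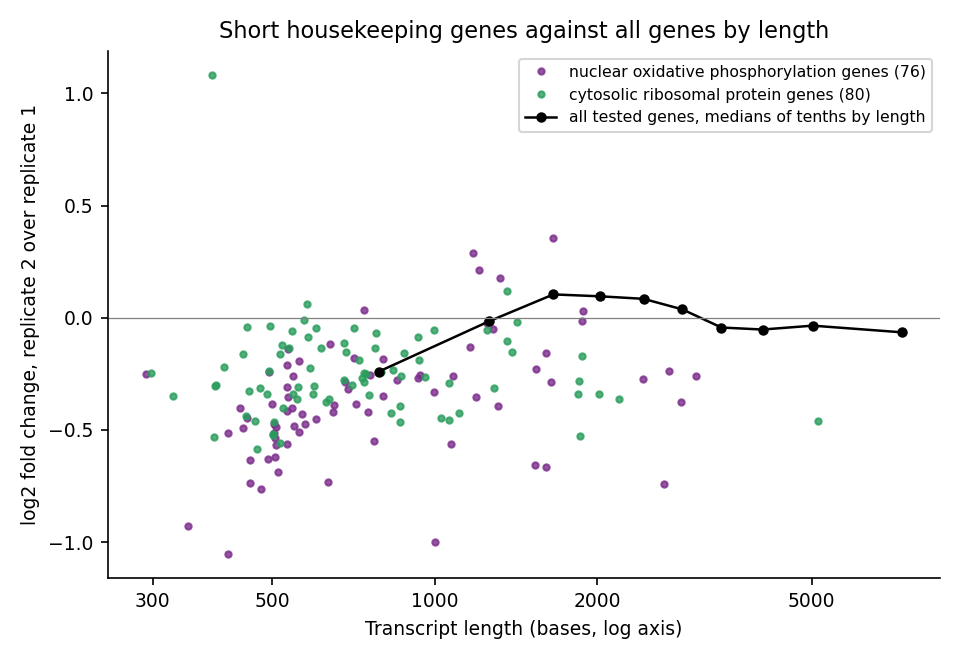
Log2 fold change of replicate 2 over replicate 1 against transcript length in bases (log axis) for oxidative phosphorylation genes (purple) and ribosomal protein genes (green), with black points for the medians of all tested genes in 10 length bins. Both lists crowd at the short end, where the median of all genes is also lowest at -0.24, and most of their members lie below 0.

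Ribosome production genes had a median of 0.36 over 54 tested members, opposite in sign to that of ribosomal protein genes. With the length trend removed, the medians were 0.29 for ribosome production and -0.06 for ribosomal protein genes. Of the 54, 6 were called higher (against 3.92% of all tested genes) and none lower (24 at an unadjusted p under 0.05, 9 called by DESeq2). Replicate 2 was higher without overlap for 31 of 54, against 24.7% of all tested genes. Wdr43, a factor of small subunit processing, was at 326 and 386 CPM in replicate 1 and 668 and 733 CPM in replicate 2 (log2 fold change 0.98 ± 0.15, adjusted p = 0.00548). Taf1a and Taf1b, subunits of the RNA polymerase I factor SL1, rose together, Taf1a from 30.2 and 58.2 CPM to 85.0 and 119 CPM. The processing factor Cirh1a and the nucleolar proteins Nolc1 and Gnl3 made up the others.

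Mitosis and spindle genes had 5 of 34 tested members called higher (14.7%, against 3.92% of all tested genes) and none lower. DESeq2 called 7, 11 had an unadjusted p under 0.05, and the median was 0.23. Prc1, which bundles microtubules of the central spindle, was at 212 and 343 CPM in replicate 1 and 778 and 766 CPM in replicate 2 (log2 fold change 1.52 ± 0.19, adjusted p = 0.00188). Cyclin B1, Ccnb1, was at 1294 and 1931 CPM in replicate 1 and 2703 and 3268 CPM in replicate 2 (adjusted p = 0.00515), with the kinase Plk1, the kinesin Cenpe and securin, Pttg1, also called. In DNA replication, the licensing factor Cdc6, the polymerase subunit Pola1 and cyclin E2, Ccne2, rose among 38 tested members, and the median of 0.10 was close to that of all genes.

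Among heat shock genes, 1 of 24 tested members was called higher (4.17%, against 3.92% of all tested genes) and 2 lower (8.33%, against 2.0%), with a median of -0.15. Cryab, a small heat shock protein, was at 84.0 and 93.3 CPM in replicate 1 and 20.3 and 8.73 CPM in replicate 2 (log2 fold change -2.72 ± 0.31, adjusted p = 0.00138), and the inducible cytosolic Hsp90, Hsp90aa1, fell from 17459 and 11494 CPM to 7939.8 and 6882 CPM (adjusted p = 0.00349). Stip1, the co-chaperone that joins Hsp70 to Hsp90, rose from 655 and 849 CPM to 1456 and 1539 CPM (adjusted p = 0.00449). Across the integrated stress and unfolded protein response, 3 of 33 tested members rose (Nupr1, Dnajb9 and Cebpb) and 3 fell (the endoplasmic reticulum chaperones Calr, Hsp90b1 and Hspa5), with a median of 0.01. Nupr1, a small stress-induced chromatin protein, went from 6.11 and 9.96 CPM to 54.9 and 45.03 CPM (log2 fold change 2.66 ± 0.30, adjusted p = 0.00138), and Hspa5, or BiP, from 278 and 228 CPM to 174 and 138 CPM. Of the p53 targets, Tigar, which lowers glycolytic flux, and the apoptosis gene Pmaip1, or Noxa, rose among 31 tested (6.45%, against 3.92% of all tested genes).

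**Figure D5:**
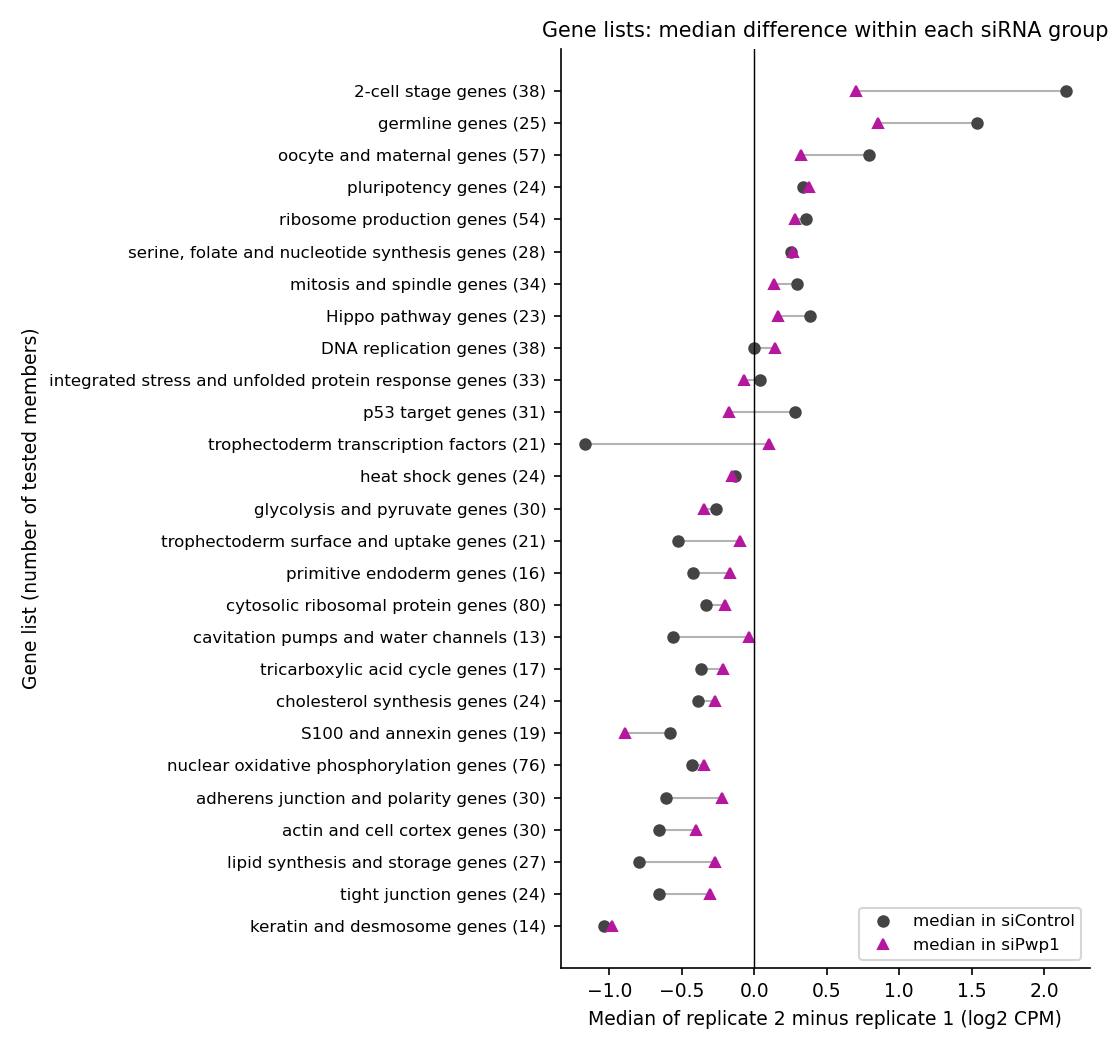
Median difference of replicate 2 minus replicate 1 (log2 CPM) over the tested members of each list with at least 13 of them, with a grey circle for siControl, a purple triangle for siPwp1 and the number of members in brackets. Most lists have both medians on the same side of 0, keratin and desmosome genes have nearly equal medians of -1.03 and -0.98, and trophectoderm transcription factors, with the lowest siControl median at -1.17, have the widest gap on opposite sides of 0.

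Set side by side by stage, genes of the 2-cell stage and the oocyte had medians above 0 in both siRNA groups in replicate 2. The germline list did too, but it was drawn up after the values were seen and shares Ddx4 and Dazl with the oocyte list. Keratin, trophectoderm surface and junction genes had medians below 0 in both, with trophectoderm surface genes at -0.096 in siPwp1. Trophectoderm transcription factors did not, at -1.17 in siControl and 0.10 in siPwp1. The tight junction median shrank to -0.14 over members with at least 5 CPM in 2 libraries. Single genes of these stages did otherwise: maternal Ooep fell, the epithelial genes Aqp9 and F11r rose, and Khdc3, Zscan4d, Tead4 and Aqp3 did not pass. With 1 library left out and no block, further medians moved by over 1.5 times, among them the following. Without siControl replicate 1 they were -0.22 for lipid genes, -0.08 for trophectoderm surface genes, -0.28 for actin genes, -0.33 for tight junction genes and 0.24 for ribosome production genes. Without siControl replicate 2 they were -0.42 for glycolysis, 0.27 for pluripotency, -0.38 for tight junction and -0.92 for S100 and annexin genes. Without siPwp1 replicate 1 the actin median was -0.68, and without siPwp1 replicate 2 that of trophectoderm surface genes was -0.37. No library of another stage is among the 4 and the labels give 72 hpi for all, so a difference in developmental progress between the replicate numbers was not tested. It cannot be told apart here from any other difference between the embryos, cultures or libraries that share a number.

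For scale, the comparison of siPwp1 with siControl in the same 4 libraries gave 0 called genes with the siRNA group as the single term (362 at an unadjusted p under 0.05, 44 called by DESeq2), and 80 with the replicate number as a block. Of those 80 genes, 32 were also called between the replicate numbers, where 805 of 13585 tested genes (5.93%) were called. Both sets of calls come from the same libraries and the same fit, so this overlap is a description. Whether a gene's replicate difference itself differed between siControl and siPwp1 could not be tested, since 4 libraries leave no degree of freedom for it.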

How the data were processed

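The files deposited by the authors hold RSEM expected counts per gene, not normalized, per the file headers, beside transcript lengths and effective lengths. They also hold TPM and FPKM made by the authors, per the file headers; TPM were used for 1 alternative and FPKM were not used. The submitters' processing notes name STAR 2.7.10, RSEM 1.3.3 and, as genome build, mm10. Not given in the sources used here are trimming, annotation release and strand setting. Genes that overlap on opposite strands may therefore share reads, and RSEM divides reads among close copies. Many named genes have such a neighbour, among them Krt8, Gata3, Fabp3, Gapdh, Zim3, Cryab, Prc1, Ppat, Impdh2, Crls1 and Elf3.

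Expected counts were rounded and tested with edgeR 4.0.16 in R 4.3.3 (quasi-likelihood test, TMM, filterByExpr with a minimum count of 10), with the siRNA group as a block and the replicate number as the tested term, over 13585 of 24411 listed genes. P-values are two-sided and adjusted by the Benjamini-Hochberg method over all tested genes, with a threshold of 0.05. Each SE was taken as the size of the log2 fold change divided by the root of its F statistic. Levels are CPM scaled by TMM, and differences within a group are log2 CPM with a prior count of 2. A gene counts as separated when both libraries of a replicate number lie beyond both of the other. Lists are described by counts and medians, with no set test.

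The members and 29 gene lists were chosen with earlier results of these data known, and 4 more lists after the values were seen. Named genes are 15 markers, Pwp1 among them, up to 15 per direction with the smallest p, at least 2-fold apart in both groups and a mean of 5 CPM, and up to 6 per list. Others (Tfap2c, Yap1, Khdc3, Gdf9, Bmp15 and list members past the sixth) were named after their values were seen, and 1 list member is not reported here by name. Promoter sequences are from RefSeq on GRCm38.p6, where 14 of the 15 leading higher genes had an entry in the gene table.

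On data simulated from these libraries (13046 genes), the test recovered 18.8% of genes changed 2-fold, 76.9% changed 4-fold and 77.4% changed 8-fold, and called 9 of 12855 unchanged genes. The simulated counts were independent, held no siRNA effect and used the spread estimated by the same fit. These rates therefore check the code and do not give the share of false calls in the real data. The alternatives were other filters, DESeq2 1.42.0 size factors and its Wald test, limma 3.58.1 on log2(TPM + 1), no block, each library left out, thinned counts, the length trend removed and a threshold of 0.1.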

Additional observations from a re-analysis of the deposited data

Results flagged for a closer look

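Lists with at least 5 tested members and 15 single marker genes were examined here. In 7 cases among them the difference of replicate 2 minus replicate 1 pointed in opposite directions in siControl and in siPwp1, in log2 CPM, and the difference between the groups was not tested in any of them. The median of the trophectoderm transcription factors was -1.17 in siControl and 0.10 in siPwp1. That of the p53 targets was 0.28 and -0.17. For the DNA replication genes it was -0.0029 and 0.14, and for the integrated stress and unfolded protein response genes 0.039 and -0.069, all close to 0. Atp1b1, a sodium pump subunit, differed by -1.77 in siControl and 0.21 in siPwp1, and Nanog by -0.54 and 0.46. The fibroblast list (0.73 in siControl and -1.12 in siPwp1) and the cumulus and granulosa list (-0.13 and 0.23), with 2 tested members each, also pointed in opposite directions, as did further single genes.

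The fifth list with at least 5 tested members was the Y-linked genes with Xist, the noncoding RNA of X inactivation, with medians of -0.93 in siControl and 0.81 in siPwp1. Ddx3y, a Y-linked RNA helicase, went from 90.1 CPM in replicate 1 to 48.2 CPM in replicate 2 in siControl and from 57.1 to 89.5 CPM in siPwp1, and Eif2s3y, a Y-linked translation factor gene, from 147 to 72.5 CPM and from 65.0 to 117 CPM. Xist was higher in replicate 2 in both groups, at 85.9 against 118 CPM and 64.1 against 112 CPM (adjusted p = 0.0654). The labels give no sex for the 10 embryos of a pool, and the part of the sex makeup in the results was not tested.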

How the results depend on the processing

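The number of calls depended on the settings, and 97 of the 118 named calls held with the length trend removed, 117 with DESeq2 and 118 with its size factors. Genes called higher numbered 941 without a filter, 338 in limma, 1 without the siRNA group block, 1 to 612 with a library left out, 299 after thinning, 302 with the length trend removed and 947 at a threshold of 0.1. Genes called lower numbered 630, 136, 4, 0 to 336, 138, 165 and 586 in the same order, and 417 with DESeq2. The 2-fold counts in both groups were 196 higher and 176 lower with at least 5 CPM in 2 libraries and 212 and 90 on log2(TPM + 1), and need all 4 libraries. Genes called for siPwp1 against siControl were 80 with the replicate block, 44 with DESeq2 and 6 to 142 with a library left out. The labels do not say what a shared number means, so that block pairs libraries by number only. Medians moved as follows. Keratin and desmosome genes were at -1.32 without a filter, -0.83 in limma, -1.29 without the length trend and -1.54 to -0.45 with a library left out. Tight junction genes were at -0.82 without a filter, -0.14 with the stricter filter and -0.15 in limma. Oxidative phosphorylation genes were at -0.28 in limma, -0.17 without the length trend and -0.45 to -0.29 with a library left out. With a library left out, oocyte and maternal genes ranged from 0.27 to 1.35 and 2-cell genes from -0.96 to 3.63, with -0.06 without siControl replicate 1. Signs also turned without siControl replicate 1 for primitive endoderm genes (0.022, range from -0.56) and heat shock genes (0.0059, range from -0.36), and without siPwp1 replicate 2 for post-implantation markers (-0.0085, range to 0.48), Spz1 (-0.31, range to 4.06) and Zfp352 (-0.62, range to 3.26). Those fits hold no siRNA group block, so the difference between the groups enters them by construction. At these depths a gene under about 3 counts, 0.0594 to 0.104 CPM, could not be told from absent.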

Other observations

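Several of the genes with the smallest p lay outside every list. Dhx16, a helicase of the spliceosome, stood at 181 and 179 CPM in replicate 1 (siControl, then siPwp1) and at 44.9 and 51.8 CPM in replicate 2, with nearly equal levels in the siRNA groups at each replicate number (adjusted p = 0.00058). Crls1, the synthase of the mitochondrial lipid cardiolipin, was at 71.3 and 63.8 CPM in replicate 1 and 235 and 204 CPM in replicate 2 (adjusted p = 0.000774). Fbxl20, an F-box protein gene, rose from 339 and 383 CPM to 887 and 878 CPM (adjusted p = 0.00138). Alox5ap, which presents arachidonic acid to 5-lipoxygenase, fell from 37.9 and 20.01 CPM to 2.82 and 3.26 CPM (adjusted p = 0.00138), and the chloride channel protein Clic4 from 294 and 136 CPM to 69.9 and 40.2 CPM (adjusted p = 0.00058). In each of these, both replicate 2 libraries lay on the same side of both replicate 1 libraries.

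Of the other leading genes, Tgoln2, Zim3 and Nlgn1 had 18 counts or fewer in each replicate 1 library. Tgoln2 had 0 counts in both replicate 1 libraries and 468 and 333 counts in replicate 2, but it is a close copy of Tgoln1, and the 2 genes summed to 55.0 and 59.4 CPM in replicate 1 and 63.3 and 63.9 CPM in replicate 2, so the split of reads between them changed and their sum hardly did. Zim3, annotated here as a long noncoding RNA, had 0 counts in replicate 1 and 133 and 299 counts in replicate 2. It overlaps Usp29 and Zfp264 on the other strand, and Zim3 and Usp29 summed to 24.7 and 27.3 CPM in replicate 1 and 26.5 and 55.0 CPM in replicate 2. Nlgn1, the synaptic adhesion protein neuroligin 1, had 0 and 18 counts in replicate 1 and 102 and 797 counts in replicate 2. The axon guidance receptor Dcc had 15 and 257 counts in replicate 1. It was at 0.521 and 5.09 CPM there and at 5.51 and 50.0 CPM in replicate 2 (adjusted p = 0.000774). Dcc and Nlgn1 were also higher in siPwp1 than in siControl at each replicate number. Their log2 fold changes of siPwp1 over siControl were 3.17 and 3.49 with the siRNA group as the single term, a fit that called neither.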
